A study of Mus musculus with 56 samples.

Results

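The genes described here are 10 endoplasmic reticulum (ER) chaperone and XBP1 target genes, Hspa5, Xbp1, Dnajb9, Herpud1, Sdf2l1, Pdia4, Pdia6, Hsp90b1, Calr and Creld2. They were chosen by symbol and matched to the Ensembl identifiers of the count tables with the GENCODE vM21 annotation of GRCm38, and all 10 of the 45513 genes listed were found and passed the filter on low counts. Liver poly(A) RNA of 56 mice was sequenced, 8 mice in each of 7 groups. All were female APOE*3Leiden.CETP mice, aged 9 to 14 weeks at the start, a transgenic strain that carries human genes of lipoprotein metabolism. All were fed a Western-type diet with 15% cacao butter and 0.15% cholesterol. Control mice were gavaged with the vehicle, 5% carboxymethyl cellulose. The others received imatinib (150 mg/kg at each of 2 gavages a day), nilotinib (10 or 30 mg/kg, 1 gavage a day) or ponatinib (3 or 10 mg/kg, 1 gavage a day). These are 3 inhibitors of the BCR-ABL1 tyrosine kinase, and mice dosed 1 time a day had a second gavage of vehicle. Treatment of these 6 groups lasted 16 weeks. The seventh group drank water with 0.12 to 0.20% L-NAME, an inhibitor of nitric oxide synthases, and its duration is not given in the sources used here.

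The ER folds secreted and membrane proteins, and the liver, which makes most plasma proteins, keeps a large one. When unfolded protein builds up there, HSPA5 (also called BiP or GRP78) leaves the sensors IRE1 (gene Ern1), ATF6 and PERK (gene Eif2ak3). IRE1 splices the Xbp1 mRNA so that it codes for an active transcription factor, ATF6 is cut by the proteases MBTPS1 and MBTPS2 to release another, and both act on genes for chaperones and for the degradation of misfolded protein. PERK acts through the translation of ATF4. The number of reads on Xbp1 counts its spliced and unspliced mRNA together, so the splicing step was not measured here.

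Reads counted on genes ranged from 5342379 to 17996732 per mouse apart from L-NAME mouse 2, with 97473341. Expression is given as CPM, the reads of a gene scaled to the reads of the library after edgeR's TMM normalization. Control mouse 1 stood apart for the genes described here, with the highest level among all 56 mice for 8 of the 10, so results are also given without it. The percentage of reads that fell on no annotated gene, called the share of reads outside genes (in percent of those reads and the reads on genes together) was lowest in control mice, at 8.22% ± 0.43 (SD, n = 8). It was 8.79% ± 0.62 with ponatinib 3 mg/kg, 10.0% ± 0.7 with nilotinib 10 mg/kg, 10.3% ± 1.8 with imatinib, 10.8% ± 1.4 with nilotinib 30 mg/kg, 11.3% ± 2.5 with L-NAME and 11.3% ± 2.0 with ponatinib 10 mg/kg (SD, n = 8 each). All comparisons with control share the same 8 control mice. In whole liver, fewer cells of a type and less RNA per cell cannot be told apart.

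The promoters of these genes are shown because several hold the ER stress response element (ERSE), which is CCAAT and CCACG with 9 bases of any kind between them, known as a binding site of ATF6 and XBP1 together with the factor NF-Y. It was searched on both strands of RefSeq promoter windows of 300 bases (250 before and 50 after the annotated start, GRCm38.p6). Of the 10 genes, 5 held it, against 0.137% of all 27025 genes with a window and 0.119% of all 32851 windows. The 10 were chosen as ER chaperone and XBP1 target genes, so this contrast is no independent result. A related element, ERSE-II (ATTGG and CCACG with 1 base between them), was found in Herpud1 and in 0.0365% of all windows. The core of a further element, TGACGTGG, whose opposite strand begins with the same CCACG, was in 0 of the 10 and in 0.676% of all windows. The sites follow from 5′ to 3′, with the fixed letters of the element in capitals.
Hspa5 (chr2:34772020-34772048, + strand): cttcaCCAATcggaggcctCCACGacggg
Pdia6 (chr12:17266486-17266514, + strand): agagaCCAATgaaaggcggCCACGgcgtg
Hsp90b1, outer site (chr10:86705633-86705661, - strand): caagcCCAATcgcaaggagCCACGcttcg
Hsp90b1, inner site (chr10:86705528-86705556, + strand): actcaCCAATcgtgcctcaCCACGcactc
Calr (chr8:84847070-84847098, + strand): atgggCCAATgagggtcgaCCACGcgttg
Creld2 (chr15:88819515-88819543, - strand): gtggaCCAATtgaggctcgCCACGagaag
Herpud1, ERSE-II (chr8:94386372-94386392, + strand): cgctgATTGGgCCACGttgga
The elements began between 52 and 212 bases before the RefSeq start of their gene. In GENCODE vM21, where Hspa5 starts upstream of the RefSeq start, its site falls in a UTR exon of Hspa5. The Herpud1 site lies within the antisense gene Gm15890 but outside its exons, and the others lie between genes. No match of these letters was found in the windows of Xbp1, Dnajb9, Sdf2l1 and Pdia4. A match describes the sequence and is not a measurement of binding.

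In control mice the genes spanned a wide range of levels. Compared per length (CPM per kilobase of exon, median of 8 mice), the most abundant was Hspa5 at 289, followed by Hsp90b1 (GRP94, the ER form of HSP90) at 268 and Calr (calreticulin, a lectin chaperone of glycoproteins) at 233. Herpud1, which takes part in ER-associated degradation, stood at 144, as did the protein disulfide isomerase Pdia4, and a second isomerase, Pdia6, at 80.9. Xbp1 stood at 64.1, the HSPA5 cofactors Sdf2l1 and Dnajb9 at 41.8 and 26.5, and Creld2, a small ER-resident protein, at 34.9. The ranges of control mice overlapped between each gene and its neighbour in this order. The spread among control mice was also unequal, with a coefficient of variation of CPM of 80.7% for Creld2 and 16.5% for Xbp1.

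**Figure D1:**
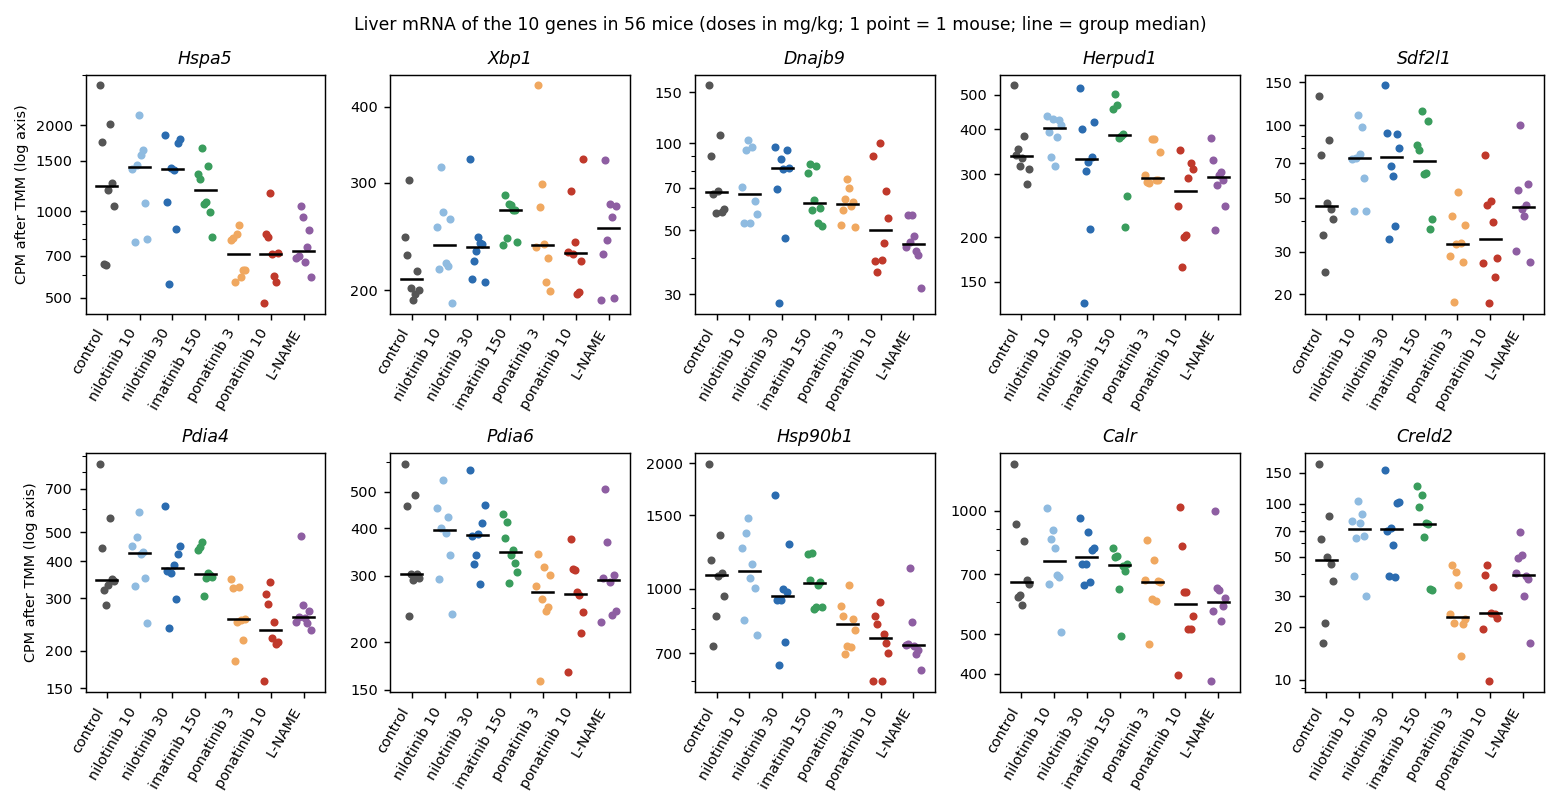
CPM after TMM normalization (log axis) of the 10 genes in each of 56 mice, by group with doses in mg/kg; a point is a mouse and a line the median of 8. Hspa5 medians were 711 and 712 with ponatinib 3 and 10 mg/kg and 1224 in control, and control mouse 1 was the highest point of all 56 for 8 genes.

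Asked first whether a gene differed among the 7 groups at all, 7 of the 10 did at an adjusted p below 0.05 (edgeR's quasi-likelihood F test over 56 mice, Benjamini-Hochberg adjustment over 14314 genes), against 18.7% of all genes tested. The smallest adjusted p was 9.02e-05, for Hspa5, followed by Creld2 (adjusted p = 0.000183) and Pdia4 (adjusted p = 0.000624). Group accounted for 43.5% of the variance of log2 CPM for Creld2, 42.9% for Hspa5 and 9.66% for Xbp1. The 3 genes that did not pass were Xbp1 (adjusted p = 0.72), Calr (adjusted p = 0.339) and Herpud1 (adjusted p = 0.0568). The count was 6 without control mouse 1.

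With ponatinib at 10 mg/kg, 4 of the 10 genes fell as compared with control, Hspa5, Pdia4, Hsp90b1 and Creld2, against 5.87% of all genes tested that were called lower, and none rose. Hspa5 ranged from 652 to 2751 CPM in control mice, with a median of 1224, and from 479 to 1162 CPM with ponatinib, with a median of 712. All 8 treated mice were below the control median, and 3 of them were below every control mouse. Expression fell by 48.2% (log2 fold change -0.95 ± 0.22 SE, adjusted p = 0.00199). Pdia4, an isomerase found in complexes with HSPA5, ranged from 285 to 850 CPM in control (median 346) and from 158 to 341 CPM with ponatinib (median 236), and 5 treated mice were below every control mouse. It fell by 42.7% (log2 fold change -0.80 ± 0.18 SE, adjusted p = 0.00147).

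Hsp90b1 fell by 34.7% with ponatinib at 10 mg/kg, from a control range of 728 to 1995 CPM (median 1080) to a range of 599 to 928 CPM (median 759; adjusted p = 0.00369). Its exons share 415 bases with 1810014B01Rik on the opposite strand, and since the strand setting of the counts is not given, reads there may not be told apart. Creld2 ranged from 16.2 to 169 CPM in control (median 47.7) and from 9.80 to 44.7 CPM with ponatinib (median 23.9). It fell by 55.4% (log2 fold change -1.17 ± 0.33 SE, adjusted p = 0.0122), and all 8 treated mice were again below the control median, although both groups overlapped. The other chaperones had negative fold changes that did not pass, with log2 values of -0.67 for Sdf2l1 (adjusted p = 0.113), -0.50 for Dnajb9 (adjusted p = 0.0998), -0.46 for Pdia6 (adjusted p = 0.059), -0.45 for Herpud1 (adjusted p = 0.067) and -0.29 for Calr (adjusted p = 0.232). Over the 10 genes the median log2 fold change was -0.56, and over all genes tested it was -0.01.

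These calls depended on control mouse 1 and on the share of reads outside genes. The median log2 fold change of the 10 genes moved to -0.37 without control mouse 1. Hspa5, Pdia4 and Hsp90b1 still passed (adjusted p = 0.0166, 0.0154 and 0.0316), against 4.25% of all genes called lower, and Creld2 did not (log2 fold change -0.74, adjusted p = 0.126). With the share of reads outside genes as a covariate, 0 of the 10 passed in edgeR, against 0.915% of all genes called lower, and 3 had an unadjusted p below 0.01. The fold changes of the 4 genes in that fit were -0.74 for Hspa5 (adjusted p = 0.0905), -0.57 for Pdia4 (adjusted p = 0.11), -0.43 for Hsp90b1 (adjusted p = 0.165) and -1.14 for Creld2 (adjusted p = 0.107), all on the log2 scale. Without ponatinib 10 mg/kg mouse 2, the count rose to 7 of 10.

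**Figure D2:**
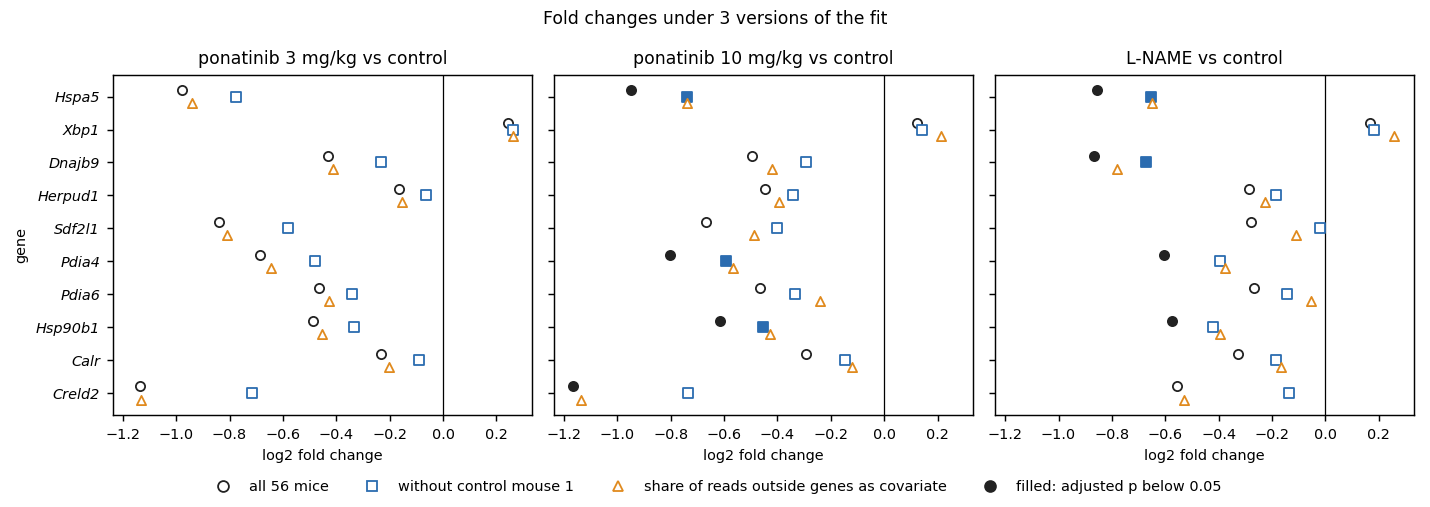
Log2 fold change of each gene with ponatinib 3 mg/kg, ponatinib 10 mg/kg and L-NAME as compared with control, in the fit of all 56 mice (circles), without control mouse 1 (squares) and with the share of reads outside genes as a covariate (triangles); filled symbols have an adjusted p below 0.05. In each of the 3 fits, 9 of the 10 genes lay below 0 and Xbp1 above it, and with the covariate 0 symbols are filled.

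At the lower ponatinib dose the point estimates were of similar size, but the comparison had few calls of any kind. With ponatinib at 3 mg/kg, 0 of the 10 genes had an adjusted p below 0.05 in edgeR, 2 did in DESeq2 and 0 in limma voom, and only 6 genes of the whole series were called, 0.0419% of those tested. At the study's cut-off, an unadjusted p below 0.01, 6 of the 10 were lower (Hspa5, Sdf2l1, Pdia4, Pdia6, Hsp90b1 and Creld2), against 1.74% of all genes. At an unadjusted p below 0.05 the count was 7, and the share over all genes was not counted there. Hspa5 ranged from 569 to 894 CPM (median 711), with all 8 mice below the control median, and its log2 fold change was -0.98 ± 0.22 SE (unadjusted p = 3.52e-05, adjusted p = 0.063). Creld2 ranged from 13.7 to 44.8 CPM (median 22.9; log2 fold change -1.14, adjusted p = 0.176) and Sdf2l1 from 18.6 to 52.6 CPM (median 32.4, control median 46.3; log2 fold change -0.84, adjusted p = 0.269). The median log2 fold change of the 10 genes was -0.48, and -0.44 with the covariate, in a group whose share of reads outside genes was the nearest to control. Without control mouse 1 it was -0.34, and 2 genes were left at the study's cut-off, where the share over all genes was not counted in that fit. At an adjusted p below 0.05, 0 of 14480 genes were called lower or higher in it. Between ponatinib 10 and 3 mg/kg, 0 of the 10 genes differed, also at an unadjusted p below 0.05 and by DESeq2 and limma voom, against 1.39% of all genes. The interval of that difference for Hspa5 ran from -0.40 to 0.47 (log2, 95% confidence), and that for Creld2 from -0.69 to 0.64.

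Ponatinib and nilotinib were both given at 10 mg/kg in 1 gavage a day, so these groups differ in drug at the same dose by weight. The plasma exposures that the paper gives for these groups differ, so drug and exposure cannot be told apart. Control mice are not in the contrast itself, but they were part of the fit of all 56 mice. This comparison was added after the data had been seen. Hspa5, Herpud1, Pdia4, Hsp90b1 and Creld2 were lower with ponatinib, 5 of the 10 genes against 1.03% of all genes tested, and all 10 had negative fold changes. Hspa5 ranged from 779 to 2173 CPM with nilotinib (median 1430), and 5 of the 8 ponatinib mice were below all of them. It was lower by -0.89 ± 0.22 SE on the log2 scale (adjusted p = 0.0188). Herpud1 ranged from 316 to 437 CPM with nilotinib (median 403) and from 165 to 350 CPM with ponatinib (median 269), and 6 of 8 ponatinib mice were below all nilotinib mice (log2 fold change -0.59 ± 0.17 SE, adjusted p = 0.0496). That call was lost in 43 of the 56 fits that left out 1 mouse, with adjusted p up to 0.122. Creld2 had the largest difference among the 10, at -1.33 ± 0.33 SE (adjusted p = 0.0204), with a nilotinib range of 30.1 to 103 CPM. The values for Pdia4 and Hsp90b1 were -0.73 (adjusted p = 0.0195) and -0.57 (adjusted p = 0.0288).

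The same 5 calls were made without control mouse 1. A fit of only the ponatinib and nilotinib groups at 10 mg/kg, which holds no control mice, gave 2 calls. With the share of reads outside genes as a covariate, 2 were left, Hspa5 and Creld2 (adjusted p = 0.0479 and 0.0378), against 0.838% of all genes called lower. Leaving out nilotinib 10 mg/kg mouse 4 alone brought the count to 0, leaving out nilotinib 10 mg/kg mouse 6 brought it to 2, and leaving out nilotinib 10 mg/kg mouse 1 or ponatinib 10 mg/kg mouse 1, 5 or 8 brought it to 3.

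The higher doses of the other drugs were not matched to ponatinib, so drug and dose cannot be told apart in them. As compared with nilotinib at 30 mg/kg, ponatinib at 10 mg/kg was lower for Hspa5, Sdf2l1, Pdia4 and Creld2, 4 of the 10 against 0.957% of all genes. Sdf2l1, which forms a complex with ER-resident J-domain proteins, ranged from 33.8 to 146 CPM with nilotinib (median 74.0) and from 18.4 to 75.0 CPM with ponatinib (median 33.9; log2 fold change -0.99 ± 0.29 SE, adjusted p = 0.0499). The call of Sdf2l1 was lost in 41 of the 56 fits that left out 1 mouse, with adjusted p up to 0.151. Creld2 was lower by -1.55 ± 0.33 SE (adjusted p = 0.00636). Leaving out 1 mouse at a time gave between 1 and 5 calls, with 1 call without ponatinib 10 mg/kg mouse 1, 6 or 7 or nilotinib 30 mg/kg mouse 1, 7 or 8, and 2 without ponatinib 10 mg/kg mouse 8 or nilotinib 30 mg/kg mouse 4 or 5. The fit of only these 2 groups gave 1. As compared with imatinib at 150 mg/kg, only Creld2 passed (log2 fold change -1.51 ± 0.33 SE, adjusted p = 0.00831), against 0.72% of all genes called lower. It ranged from 32.4 to 126 CPM with imatinib (median 77.2). The count was 2 without control mouse 1, ponatinib 10 mg/kg mouse 2 or imatinib mouse 7, and 3 without ponatinib 10 mg/kg mouse 4. At an unadjusted p below 0.01 there were 6 of 10, against 2.21% of all genes, with adjusted p from 0.07 for Pdia4 to 0.163 for Hsp90b1 among the 5 that did not pass.

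**Figure D3:**
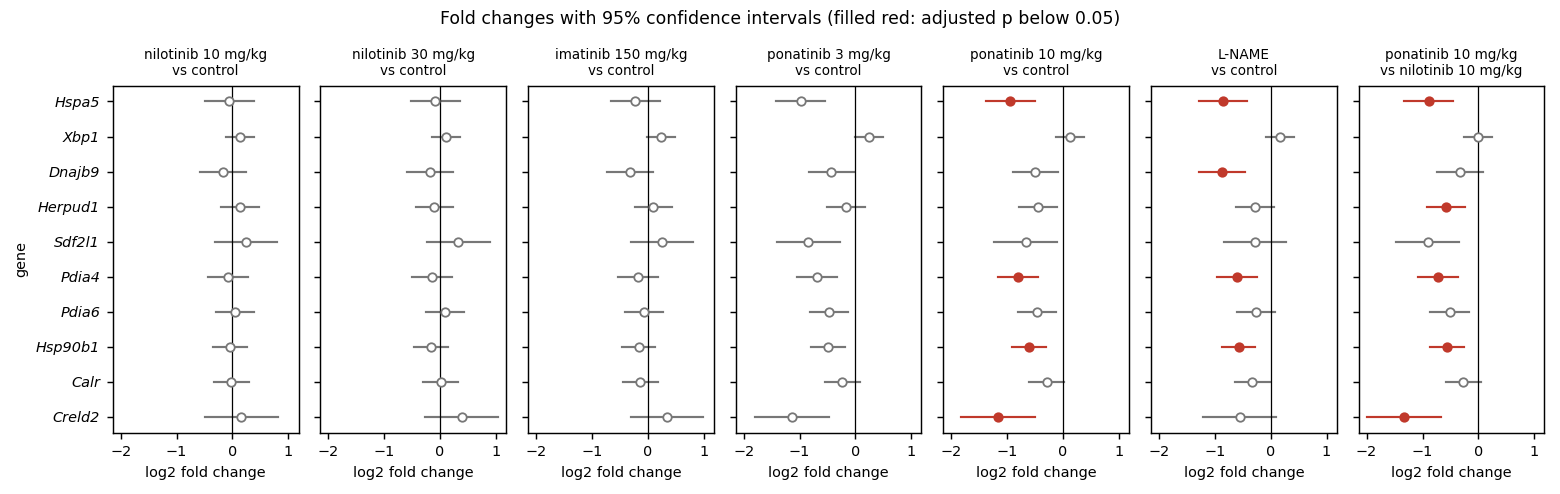
Log2 fold change with 95% confidence interval of the 10 genes in 7 comparisons, each fitted over 56 mice; filled red points have an adjusted p below 0.05. Red points stand in the panels of ponatinib 10 mg/kg (4 against control, 5 against nilotinib 10 mg/kg) and L-NAME (4), and the Xbp1 intervals include 0 in all 7.

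With L-NAME, Hspa5, Dnajb9, Pdia4 and Hsp90b1 fell as compared with control, 4 of the 10 genes against 6.24% of all genes tested. Dnajb9 (ERdj4), a J-domain protein that binds IRE1 and unfolded clients, ranged from 31.5 to 56.6 CPM with L-NAME (median 44.6) and from 57.2 to 159 CPM in control (median 67.6). The groups did not overlap, as was so for 1.57% of all genes in the downward direction, and Dnajb9 fell by 45.2% (log2 fold change -0.87 ± 0.21 SE, adjusted p = 0.00284). Hspa5 ranged from 591 to 1047 CPM (median 725) and fell by 44.7% (adjusted p = 0.00564). Pdia4 and Hsp90b1 fell by 34.2% and 32.9% (adjusted p = 0.0182 and 0.007). Creld2, called with ponatinib, had a log2 fold change of -0.56 with L-NAME (adjusted p = 0.307), and Dnajb9, called with L-NAME, had -0.50 with ponatinib at 10 mg/kg. The difference between L-NAME and ponatinib was not tested.

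Here too the calls depended on control mouse 1 and on reads outside genes. Without control mouse 1, Hspa5 and Dnajb9 passed (adjusted p = 0.0385 and 0.0212) and Pdia4 and Hsp90b1 did not (adjusted p = 0.135 and 0.0501), against 5.26% of all genes called lower. With the covariate 0 of the 10 passed, against 0.845% of all genes called lower, and 1, Dnajb9, had an unadjusted p below 0.01 (log2 fold change -0.78, adjusted p = 0.0768). Hspa5 had a log2 fold change of -0.65 in that fit (adjusted p = 0.168). The median log2 fold change of the 10 genes was -0.44 in all mice, -0.30 with the covariate and -0.19 without control mouse 1. Without L-NAME mouse 2, the deepest library, the count stayed at 4.

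Imatinib and nilotinib gave no call among these genes. With imatinib at 150 mg/kg, nilotinib at 10 mg/kg and nilotinib at 30 mg/kg, 0 of the 10 passed in edgeR, DESeq2 or limma voom, and 0 had an unadjusted p below 0.05, against 10.3%, 1.41% and 5.77% of all genes called in either direction. Hspa5 ranged from 811 to 1664 CPM with imatinib (median 1189) and from 560 to 1849 CPM with nilotinib at 30 mg/kg (median 1405). All imatinib mice lay within the control range, and 1 nilotinib mouse lay below it. The 95% interval of the log2 fold change of Hspa5 ran from -0.66 to 0.21 with imatinib, from -0.49 to 0.38 with nilotinib at 10 mg/kg and from -0.52 to 0.35 with 30 mg/kg. For Creld2 with nilotinib at 30 mg/kg it ran from -0.26 to 1.03, so a rise of that size could not be told from none. The largest fold change toward higher levels with imatinib was that of Creld2 (0.34, adjusted p = 0.585). With 1 mouse left out it ran from 0.198 to 0.768, and from 0.166 to 0.806 with nilotinib at 30 mg/kg. Without control mouse 1, the median log2 fold change of the 10 genes moved from -0.10 to 0.05 with imatinib. It moved from 0.01 to 0.15 and from -0.04 to 0.12 with nilotinib at 10 and 30 mg/kg. Still 0 of the 10 passed, against 3.29%, 0.76% and 3.25% of all genes called lower and 601, 35 and 247 of 14480 higher. The 2 doses of nilotinib, and imatinib and nilotinib at 30 mg/kg, differed for 0 of the 10 genes by the same tools, also at an unadjusted p below 0.05, against 0% and 3.59% of all genes called.

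**Figure D4:**
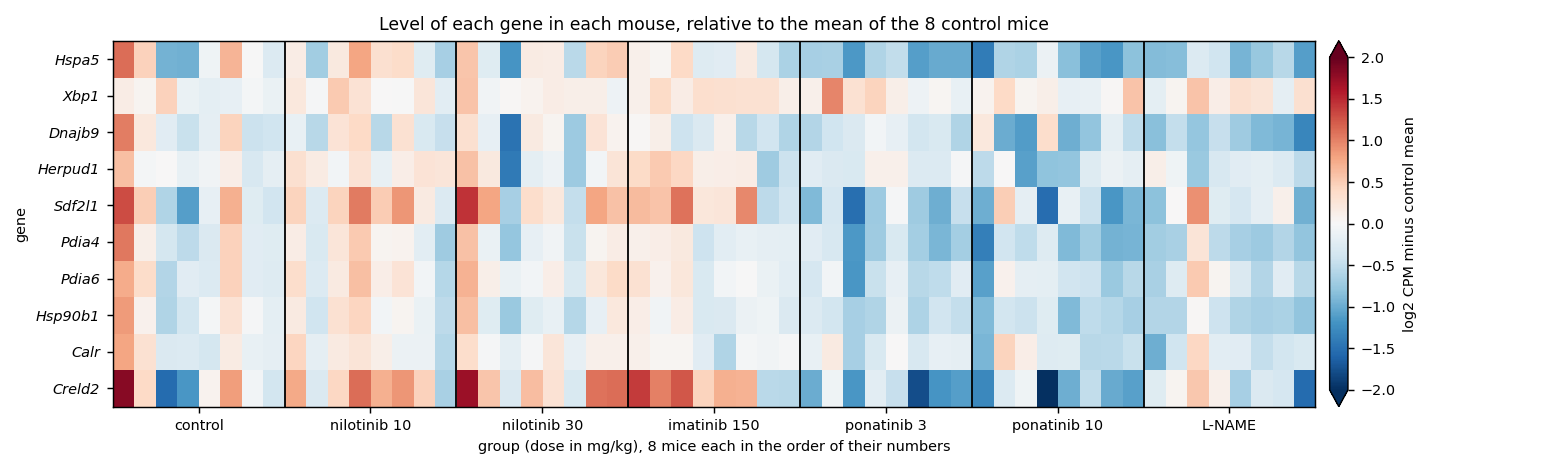
Log2 CPM of each gene (rows) in each mouse (columns) minus the mean of the 8 control mice, with 7 groups of 8 mice and doses in mg/kg. Blue fills most of the ponatinib and L-NAME columns apart from Xbp1, and control mouse 1, the first column, is red in most of its rows.

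With ponatinib and L-NAME, Xbp1 had a positive fold change and the other 9 genes negative ones, but Xbp1 passed no test. It ranged from 193 to 303 CPM in control (median 208) and from 237 to 286 CPM with imatinib (median 271), where all 8 mice were above the control median (log2 fold change 0.24 ± 0.13 SE, adjusted p = 0.251). The log2 fold changes in the 6 comparisons with control ran from 0.11 to 0.25. One mouse given ponatinib at 3 mg/kg (mouse 2) reached 434 CPM, the highest Xbp1 level of all.

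Of the 9 genes of a list of sensors and their processing enzymes, 4 fell and 1 rose with imatinib, 1 fell with nilotinib at 30 mg/kg, 0 passed with nilotinib at 10 mg/kg or ponatinib at 3 mg/kg, 3 fell with ponatinib at 10 mg/kg and 4 fell with L-NAME. Over all genes tested, 4.58% fell and 5.69% rose with imatinib, and 3.43% fell with nilotinib at 30 mg/kg, 5.87% with ponatinib at 10 mg/kg and 6.24% with L-NAME. Without control mouse 1, 0 of the 9 passed with ponatinib at 10 mg/kg or nilotinib at 30 mg/kg, 3 with imatinib and 4 with L-NAME. In the same order, 4.25%, 3.25%, 3.29% and 5.26% of all genes were called lower and 810, 247, 601 and 589 of 14480 higher. With the covariate 0, 0, 2 and 1 passed in edgeR. There, 0.915%, 0.426%, 1.92% and 0.845% of all genes were called lower and 233, 36, 390 and 131 of 14314 higher. Ern1 was 68.9 ± 24.9 CPM in control and 32.7 ± 5.6 with L-NAME (SD, n = 8; log2 fold change -1.08, adjusted p = 2.13e-05), 40.4 ± 8.5 with imatinib (adjusted p = 0.00107) and 44.8 ± 6.4 with nilotinib at 30 mg/kg (adjusted p = 0.0115). With ponatinib at 10 mg/kg it was 50.5 ± 17.4 (adjusted p = 0.0508). Ern1 was lower both with L-NAME, where some of the 10 genes passed, and with imatinib and nilotinib at 30 mg/kg, where none did. The part of Ern1 in the levels of the 10 genes was not tested. Eif2ak3 was 25.8 ± 12.0 CPM in control and fell with ponatinib at 10 mg/kg to 14.0 ± 4.7 (adjusted p = 0.00627) and with imatinib to 15.7 ± 2.5 (adjusted p = 0.0351).

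Atf6, the sensor that is cut to a transcription factor, fell with imatinib, ponatinib at 10 mg/kg and L-NAME (log2 fold changes -0.46, -0.43 and -0.53, adjusted p = 0.0378, 0.0498 and 0.0132). Mbtps1 fell with ponatinib at 10 mg/kg and L-NAME (adjusted p = 0.0414 and 0.0103), and Creb3l2, a related membrane-bound factor, with imatinib and L-NAME (adjusted p = 0.0154 and 0.00797). Creb3l3, its liver-enriched relative, rose with imatinib from 267 ± 34 to 366 ± 35 CPM (adjusted p = 0.00637). Atf6b, Mbtps2 and the RNA ligase Rtcb, which joins the spliced Xbp1 mRNA, passed in none of the 6 comparisons.

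Of 11 genes of the PERK arm and its targets, at most 2 passed in any comparison with control. These counts of 2 were with imatinib and with ponatinib at 10 mg/kg, where 10.3% and 13.1% of all genes were called in either direction. With ponatinib at 10 mg/kg, 1 of the 2 was left without control mouse 1. Atf4 rose with ponatinib at 10 mg/kg from 92.7 ± 10.1 to 131 ± 23 CPM (adjusted p = 0.000853), and with imatinib, nilotinib at 30 mg/kg and L-NAME (adjusted p = 0.0313, 0.0201 and 0.0245). Atf3, a stress-induced factor, was low and variable, at 14.8 ± 13.2 CPM in control, and fell to 4.96 ± 3.58 with ponatinib at 10 mg/kg and to 5.18 ± 4.20 with imatinib (adjusted p = 0.0268 and 0.0387). Ddit3 (CHOP) was 18.1 ± 11.4 CPM in control and 17.6 ± 8.9 with ponatinib at 10 mg/kg (adjusted p = 0.952). Trib3, Asns, Chac1, Ppp1r15a, Sesn2, Nupr1, Ddit4 and Fgf21 also passed in none of the 6 comparisons, and the group means of Asns lay between 0.315 and 1.34 CPM.

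Outside the 10 genes, 134 genes of the ER pathway and chaperone lists were tested, and 29 fell and 9 rose with ponatinib at 10 mg/kg. Over all genes tested, 5.87% fell and 7.24% rose, which is the background for each list in this comparison. Among 25 other ER folding genes, 4 fell and 2 rose. Hyou1, a large chaperone that exchanges nucleotide on HSPA5, fell from 329 ± 191 to 154 ± 62 CPM (adjusted p = 0.00189). It was also 1 of the 6 genes of the series called with ponatinib at 3 mg/kg (log2 fold change -1.23, adjusted p = 0.0248). Cnpy2 rose from 56.2 ± 9.2 to 85.5 ± 17.9 CPM and Fkbp2, a prolyl isomerase, from 52.7 ± 6.6 to 82.3 ± 20.9 CPM with ponatinib at 10 mg/kg (adjusted p = 0.000309 and 0.00105). Both also rose with imatinib and with nilotinib at 30 mg/kg, as did the prolyl isomerase Ppib in these 2 groups (adjusted p = 0.0386 and 0.00826). Cnpy2, Fkbp2 and Ppib rose with L-NAME too (adjusted p = 0.00186, 0.025 and 0.022), and Hyou1 fell (adjusted p = 0.000471).

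Of 24 genes of ER-associated degradation, 5 fell and 3 rose with ponatinib at 10 mg/kg. Derl3, a channel component, fell from 40.6 ± 26.7 to 12.9 ± 7.4 CPM (adjusted p = 0.00407). Nploc4, a cofactor of the ATPase p97, fell from 100 ± 14 to 62.1 ± 16.2 CPM (adjusted p = 0.00026) and the mannosidase-like Edem1 from 270 ± 53 to 203 ± 38 CPM (adjusted p = 0.00484). Nploc4 also fell with imatinib and nilotinib at 30 mg/kg (adjusted p = 0.0447 and 0.0237), and Aup1 and Selenok rose with imatinib (adjusted p = 0.0254 and 0.0389). Nploc4 and Edem1 fell with L-NAME (adjusted p = 0.00185 and 0.000862), and Derl3, Aup1 and Selenok did not pass there.

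Of 22 tested translocation genes, 4 fell and 2 rose with ponatinib at 10 mg/kg, among them Sec61a1, the channel itself (adjusted p = 0.0304), and the signal peptidase subunit Spcs3 (adjusted p = 0.0138), which fell, and Ssr4, which rose from 77.6 ± 8.4 to 101 ± 19 CPM (adjusted p = 0.0123). Ssr4 also rose with imatinib and nilotinib at 30 mg/kg (adjusted p = 0.0223 and 0.0183), Sec61b with imatinib (adjusted p = 0.0354) and Srp9 with nilotinib at 30 mg/kg (adjusted p = 0.0228). Ssr4 and Srp9 rose with L-NAME (adjusted p = 0.00232 and 0.0414), and Sec61b did not pass. Sec61a1 and Spcs3 fell with L-NAME (adjusted p = 0.0112 and 0.0171). Of 11 glycosylation genes, 4 fell and 1 rose with ponatinib at 10 mg/kg. The glucosidase subunit Ganab and the transferase subunit Stt3b fell (adjusted p = 0.0108 and 0.0115) and the small subunit Dad1 rose (adjusted p = 0.00548). Dad1 rose with imatinib and nilotinib at 30 mg/kg too (adjusted p = 0.00991 and 0.0214), and Ganab fell with the latter (adjusted p = 0.0315). Ganab and Stt3b fell with L-NAME as well (adjusted p = 0.00347 and 0.00192), and Dad1 did not pass there.

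Of 17 tested genes of transport from the ER to the Golgi, 5 fell and 0 rose with ponatinib at 10 mg/kg. The coat proteins Sec23a and Sec24d fell from 103 ± 10 to 65.0 ± 17.6 CPM and from 103 ± 27 to 58.1 ± 22.0 CPM (adjusted p = 0.000532 and 0.00675), and the cargo receptor Lman1 from 273 ± 34 to 211 ± 52 CPM (adjusted p = 0.0182). Sec23a and Lman1 also fell with nilotinib at 30 mg/kg (adjusted p = 0.0214 and 0.0156), Sec31a with that dose and with imatinib (adjusted p = 0.0114 and 0.0145), and Sar1b rose with imatinib (adjusted p = 0.000508). Sec23a, Sec24d, Lman1 and Sec31a fell with L-NAME (adjusted p = 0.000616, 0.00149, 7.46e-05 and 0.000114), and Sar1b did not pass there. Of 15 tested chaperones of the cytosol and mitochondria, Hspa4, Hsp90ab1 and Hspa9 fell with ponatinib at 10 mg/kg (adjusted p = 0.0138, 0.0152 and 0.0239). Hspa9 and Hspa4 fell with nilotinib at 30 mg/kg (adjusted p = 0.00546 and 0.0433), and Hspe1 rose with imatinib (adjusted p = 0.0386). Hspa4, Hsp90ab1 and Hspa9 fell with L-NAME (adjusted p = 0.00287, 0.0129 and 0.00311), and Hspe1 rose (adjusted p = 0.00746).

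Gene length moved with these calls. Among the list genes called with ponatinib at 10 mg/kg, the 29 that fell had a median exon length of 5528 bases and the 9 that rose 3096, and over all genes called the medians were 5480 and 2591, with 4113 over all genes tested. The 10 genes described here were 1108 to 4229 bases long, and 9 of them were shorter than that median. Without control mouse 1, 14 list genes fell and 7 rose with ponatinib at 10 mg/kg. Over all genes in that fit, 4.25% were called lower, and 810 of 14480 were called higher. With the share of reads outside genes as a covariate 3 list genes fell and 2 rose. Over all genes in that fit, 0.915% were called lower, and 233 of 14314 were called higher. By list, the count called in either direction with ponatinib at 10 mg/kg without control mouse 1 was 5 for folding, 5 for degradation and 2 for translocation. It was 3 for glycosylation, 3 for transport to the Golgi and 2 for other chaperones, and the shares over all genes given for that fit are the background. With L-NAME, 38 of the 134 fell and 8 rose, against 6.24% and 5.55% of all genes. With the covariate 9 fell and 1 rose, against 0.845% of all genes called lower and 131 of 14314 called higher. The part of gene length and of reads outside genes in these counts was not tested beyond this.

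**Figure D5:**
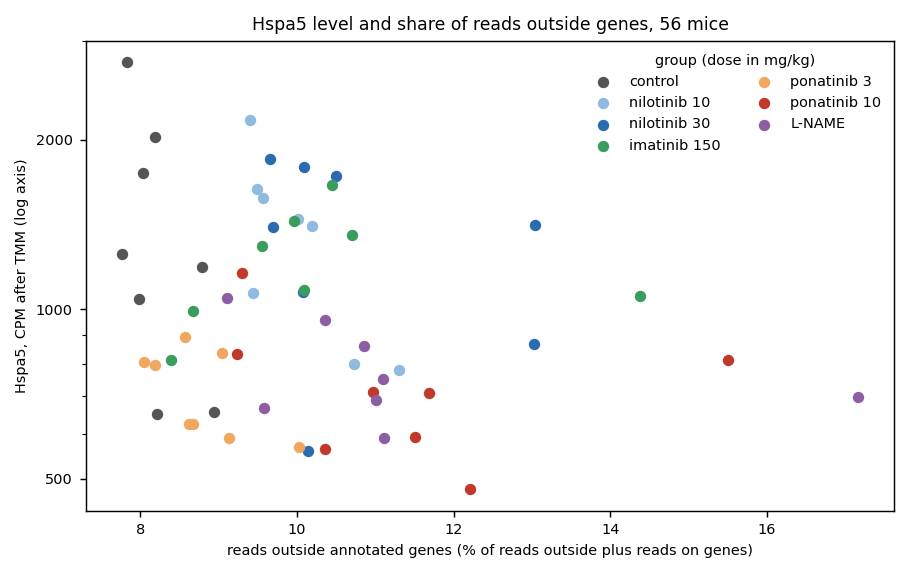
Hspa5 level (CPM after TMM, log axis) against the share of reads outside genes in each of 56 mice, coloured by group with doses in mg/kg. Average shares and Hspa5 ranges were 8.22% and 652 to 2751 CPM in control, and 8.79% and 569 to 894 CPM with ponatinib 3 mg/kg. They were 10.0% and 779 to 2173 CPM with nilotinib 10 mg/kg, 10.3% and 811 to 1664 CPM with imatinib, and 10.8% and 560 to 1849 CPM with nilotinib 30 mg/kg. Ponatinib 10 mg/kg and L-NAME had the highest shares (11.3% each), with 479 to 1162 and 591 to 1047 CPM. The part of the share in the Hspa5 level was not tested beyond the fits with the covariate.

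Many of the genes whose level moved most like that of the 10 genes from mouse to mouse belonged to the same compartment. After subtraction of group means, over 56 mice, the Pearson correlation with the mean of the standardized levels of the 10 genes was 0.859 for Hyou1, 0.856 for Pdia3, 0.832 for Dnajc3, 0.825 for Manf, 0.802 for Dnajb11, 0.771 for Tmed9, 0.767 for Syvn1, 0.744 for Ero1lb, 0.73 for Mlec and 0.722 for P4hb. Of the 50 genes most like that mean, 23 were on the pathway lists, which hold 134 of the 14314 genes tested, and the others were on none of these lists. These mice share library preparation and differ in depth, and the values describe them only. Among the 10 genes, the 45 pairwise correlations ran from 0.066 (Xbp1 with Herpud1) to 0.916 (Pdia4 with Hsp90b1), with a median of 0.561. Pdia4 and Pdia6 reached 0.909, and Herpud1 and Calr 0.119. The median was 0.497 without control mouse 1.

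The ERSE was also found in promoters of other genes. Of 14 tested genes outside the 10 that hold it in their promoter window, Canx, Derl3, Dnajc3 and Syvn1 fell with ponatinib at 10 mg/kg, which is 28.6% against 5.84% of all genes with a window, and Pan2 rose. Their log2 fold changes were -0.50 for Canx (calnexin), -1.66 for Derl3, -0.64 for Dnajc3 (a cofactor of HSPA5) and -0.77 for Syvn1 (the ligase HRD1), with adjusted p = 0.00209, 0.00407, 0.00421 and 0.0182. With L-NAME, Canx, Dnajc3, Syvn1 and Acacb fell, 28.6% against 6.31% of all genes with a window, and Pan2 rose (adjusted p = 0.0224). Acacb also fell with nilotinib at 30 mg/kg (adjusted p = 0.0346), 7.14% against 3.29%. With imatinib, nilotinib at 10 mg/kg and ponatinib at 3 mg/kg, 0 of the 14 passed, against 4.83%, 0.934% and 0.0289% of all genes with a window called lower. These genes were named after their values had been seen, and Canx, Derl3, Dnajc3 and Syvn1 are also among the 29 list genes that fell. Without control mouse 1, 3 of the 14 fell with ponatinib at 10 mg/kg, against 4.25% of all genes tested. With the covariate 1 did, against 0.915%. The median log2 fold change of the 14 was -0.44 with ponatinib at 3 mg/kg, -0.31 with ponatinib at 10 mg/kg and -0.15 with L-NAME. It was -0.11 with nilotinib at 10 mg/kg, 0.07 with nilotinib at 30 mg/kg and 0.12 with imatinib.

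Markers of other liver and secretory cells were read in the same mice. The summed level of 7 markers of B and plasma cells ranged from 236 to 398 CPM in control, from 146 to 432 CPM with ponatinib at 10 mg/kg and from 195 to 281 CPM with L-NAME, and most of it came from Sdc1, which hepatocytes also express (control median 300.1 CPM). Of the 5 tested, Jchain and Ighm rose and Sdc1 fell with ponatinib at 10 mg/kg (adjusted p = 0.0162, 0.0129 and 0.0455), and the plasma cell receptor Tnfrsf17 had a median of 0 in both groups. The sum of 6 markers of pancreatic acinar cells did not exceed 8.99 CPM in any mouse, and Cpa1, Ctrb1, Prss2 and Pnlip were at 0 in all control mice. Hepatocyte markers summed to between 69980 and 152000 CPM over the 56 mice. Of these 8, Ttr, Apoa1 and Serpina1c rose and Apob and Cps1 fell with ponatinib at 10 mg/kg. Of 7 stellate cell markers, the collagens Col1a1 and Col3a1 fell (log2 fold changes -2.78 and -1.93, adjusted p = 9.07e-05 and 0.00044), and the sum ranged from 381 to 1076 CPM in control and from 149 to 579 CPM with ponatinib at 10 mg/kg. Kupffer cell markers, at 722 to 1479 CPM in control, ranged from 382 to 2147 CPM, and Clec4f and Marco rose (adjusted p = 0.0216 and 0.0227). Among the other groups, Col1a1 was 1 of the 6 genes called with ponatinib at 3 mg/kg (log2 fold change -2.31, adjusted p = 0.0248). With L-NAME, Apoa1, Serpina1c and Clec4f rose and Apob, Cps1 and Sdc1 fell. With imatinib, Ttr and Apoa1 rose, and Cps1, the Kupffer cell markers Adgre1, Cd5l and Csf1r, and both collagens fell. Nilotinib at 30 mg/kg had 2 hepatocyte markers lower and 1 higher, and 1 Kupffer cell marker higher. Nilotinib at 10 mg/kg had 1 hepatocyte marker lower. No endothelial, cholangiocyte, T and NK cell or neutrophil marker tested passed in any of the 6 comparisons. The part of these markers in the results for the 10 genes was not tested.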

How the data were processed

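The authors aligned the liver poly(A) reads to GRCm38 with TopHat2 2.0.14 and Bowtie2 2.1.0 and deposited HTSeq 0.6.1p1 read counts per Ensembl gene, not normalized (SAMtools 0.1.18 is also named in the submitters' processing notes). Reads with several places or ambiguous genes are on no gene in them, and the strand setting is not given in the sources used here, so reads of overlapping genes on opposite strands may not be told apart. From these counts, 14314 genes passing edgeR's expression filter were fitted in 1 quasi-likelihood model of 56 mice in 7 groups (edgeR 4.0.16, limma 3.58.1, DESeq2 1.42.0, R 4.3.3), with TMM normalization. A gene was called at a Benjamini-Hochberg adjusted p below 0.05 over all genes tested, and the study's cut-off, an unadjusted p below 0.01, is given beside it. Log2 CPM used a prior count of 2. The fits were tested on simulated data. No 2 libraries were identical.

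The 10 genes and all lists were chosen with earlier results of these data known. Named genes are the 10, the sensor and PERK lists, up to 3 called genes of each other list with the smallest adjusted p in imatinib, nilotinib 30 mg/kg and ponatinib 10 mg/kg, and the 10 genes most like the members. Of the genes that this rule names, 1 is not reported here. ERSE genes and cell markers were named after their values had been seen. Alternatives were DESeq2, limma voom, other normalization, no filter, fits of fewer groups, the share of reads outside genes as a covariate and each mouse left out. Replicate numbers only name mice. The comparison of ponatinib with nilotinib at 10 mg/kg and the list counts without single mice were added after the data had been seen. Promoter sequences are from RefSeq (GRCm38.p6).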

Additional observations from a re-analysis of the deposited data

Results flagged for a closer look

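Of 70 sets of 8 mice (10 genes in 7 groups), 5 held a mouse far from the others by Dixon's criterion, and chance gives about 1 in 20. Pdia4 reached 486.1 CPM in L-NAME mouse 3, next to 284.3 CPM in the nearest mouse, and Hsp90b1 reached 1119 CPM in that mouse, next to 828.9. Xbp1 reached 328.2 CPM in nilotinib 30 mg/kg mouse 1, next to 244.1. Calr was lowest in imatinib mouse 5, at 494.1 CPM, next to 643.1, and Pdia6 in ponatinib 3 mg/kg mouse 3, at 157.7 CPM, next to 241.9.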

How the results depend on the processing

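The counts of the 10 genes called moved under these alternatives, and the cause was not tested. With ponatinib 3 mg/kg as compared with control, 1 was called with no filter, 2 by DESeq2 and 6 at an unadjusted p below 0.01. With the share of reads outside genes as a covariate, 0 were called with ponatinib 10 mg/kg, 0 with L-NAME and 2 for ponatinib 10 mg/kg against nilotinib 10 mg/kg, and the fit of only those 2 groups gave 2 for the last. Ponatinib 10 mg/kg against imatinib gave 2 by DESeq2, 3 in the fit of 2 groups and 6 at an unadjusted p below 0.01, and against nilotinib 30 mg/kg 1 in the fit of 2 groups.

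With each mouse left out in turn, the counts ran from 0 to 1 for ponatinib 3 mg/kg (1 in 10 of 56 fits), from 3 to 7 for ponatinib 10 mg/kg, from 2 to 5 for L-NAME, from 1 to 3 against imatinib, from 1 to 5 against nilotinib 30 mg/kg, from 0 to 7 against nilotinib 10 mg/kg and from 6 to 7 for any difference among groups. They were 0 throughout in the other 6 comparisons.

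Many fold changes near 0 changed sign under some alternative. Those that were not called and moved by more than their standard error in doing so were 8. Without control mouse 1, Pdia4 was 0.13 with nilotinib 10 mg/kg, 0.06 with nilotinib 30 mg/kg and 0.035 with imatinib, and Hsp90b1 was 0.107 with nilotinib 10 mg/kg. With the covariate, Pdia4 was 0.042 with nilotinib 30 mg/kg, and between ponatinib doses Pdia4 was 0.08 and Hsp90b1 0.023. Without ponatinib 3 mg/kg mouse 2, Xbp1 was 0.015 between the doses. Over all fits with 1 mouse left out, these values ran from -0.248 to 0.035 for Pdia4 with imatinib, from -0.172 to 0.13 for Pdia4 and from -0.124 to 0.107 for Hsp90b1 with nilotinib 10 mg/kg, from -0.272 to 0.06 for Pdia4 with nilotinib 30 mg/kg, and from -0.2 to 0.015 for Xbp1 between ponatinib doses. No paired analysis was possible because the replicate numbers only name mice.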
